A study of Mus musculus with 24 samples.

Results

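This account describes the wide H3K27ac domains of the mouse retina at postnatal day 2 (P2). A domain is a peak of the deposited P2 H3K27ac list whose end minus start is 20000 bp or more. The members were thus chosen by their measured width. The rule found 831 domains among the 287845 peaks of that list, and the 8 deposited lists together hold 349901 peaks. Wild-type retina was taken at P2, while retinal neurons and glia are still being formed, and at P17. Nuclei went through CUT&RUN, in which an antibody directs a nuclease to a chromatin protein and the released DNA is sequenced, with antibodies to H3K27ac, H3K4me3, SOX8 and SOX9 and a nonspecific IgG. Of 24 libraries, 2 belong to each age for H3K27ac, H3K4me3, SOX9 and IgG, and 4 to each age for SOX8, from 2 antibodies. All groups share the wild-type genotype, and each reaction used 600000 nuclei of whole retina, so cell types are mixed. Each list stands for the libraries of 1 target and age and names no replicate, no IgG list was analysed here, and the depth is unknown.

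H3K27ac is acetylation of lysine on histone H3 at active promoters and enhancers. Long unbroken stretches of it have been described at genes that define a cell type, where many enhancers lie close together. H3K4me3 marks the promoter itself. SOX8 and SOX9 are related HMG-box transcription factors; in the retina SOX9 is present in progenitors and in Müller glia, the main glial cells of the tissue.

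No replicate values stand behind any number below. The values describe the lists as they are, peaks are not replicates, and no test was run between sets of peaks. Intervals given for shares of domains are 95% Wilson intervals and cover counting error only.

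Sequences are shown here for start sites of retinal regulators that lie inside a domain, because the domains at these genes span low and high shares of P17 H3K27ac. The windows are RefSeq promoters of build GRCm38.p6, from 250 bases before to 50 bases after the start site, written 5′ to 3′ on the strand of the gene. Capitals mark the SOX core letters ACAAT or ACAAAG on either strand (ATTGT and CTTTGT when read on the other strand), which do not overlap each other in these windows. The first 3 lie in domains of which 28.0% or less was covered by P17 H3K27ac, and the others in domains covered at 92.9% or more.
Sox8, chr17:25570637-25570936, minus strand: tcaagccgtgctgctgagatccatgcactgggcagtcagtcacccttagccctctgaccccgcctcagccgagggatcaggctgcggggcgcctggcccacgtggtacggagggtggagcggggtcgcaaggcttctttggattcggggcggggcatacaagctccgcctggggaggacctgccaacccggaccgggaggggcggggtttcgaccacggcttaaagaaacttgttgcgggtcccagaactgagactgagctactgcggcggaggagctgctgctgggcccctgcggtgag
Notch1, chr2:26503773-26504072, minus strand: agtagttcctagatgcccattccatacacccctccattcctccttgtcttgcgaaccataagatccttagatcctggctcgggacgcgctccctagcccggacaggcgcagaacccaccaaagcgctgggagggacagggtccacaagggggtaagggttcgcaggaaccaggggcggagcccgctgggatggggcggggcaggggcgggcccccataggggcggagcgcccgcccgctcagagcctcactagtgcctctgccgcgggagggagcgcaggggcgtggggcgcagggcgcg
Foxn4, chr5:114273712-114274011, minus strand: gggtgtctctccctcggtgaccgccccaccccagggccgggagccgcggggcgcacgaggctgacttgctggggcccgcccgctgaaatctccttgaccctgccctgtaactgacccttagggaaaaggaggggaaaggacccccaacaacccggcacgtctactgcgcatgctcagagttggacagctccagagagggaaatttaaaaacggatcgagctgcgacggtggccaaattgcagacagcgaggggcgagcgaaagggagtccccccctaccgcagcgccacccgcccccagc
Pax6, upstream start site, chr2:105668646-105668945, plus strand: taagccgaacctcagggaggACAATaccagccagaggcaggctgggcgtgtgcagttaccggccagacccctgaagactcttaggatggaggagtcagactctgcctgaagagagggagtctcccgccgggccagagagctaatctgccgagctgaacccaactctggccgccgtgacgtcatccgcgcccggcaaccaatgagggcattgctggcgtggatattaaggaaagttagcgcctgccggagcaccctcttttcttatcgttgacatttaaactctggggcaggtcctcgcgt
Pax6, downstream start site, chr2:105682213-105682512, plus strand: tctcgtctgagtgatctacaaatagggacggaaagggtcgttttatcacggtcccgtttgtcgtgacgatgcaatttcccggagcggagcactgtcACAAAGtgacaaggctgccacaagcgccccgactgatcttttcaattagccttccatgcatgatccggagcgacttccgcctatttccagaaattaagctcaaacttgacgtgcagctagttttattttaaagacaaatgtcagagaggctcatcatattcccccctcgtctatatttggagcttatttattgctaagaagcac
Six3, chr17:85620584-85620883, plus strand: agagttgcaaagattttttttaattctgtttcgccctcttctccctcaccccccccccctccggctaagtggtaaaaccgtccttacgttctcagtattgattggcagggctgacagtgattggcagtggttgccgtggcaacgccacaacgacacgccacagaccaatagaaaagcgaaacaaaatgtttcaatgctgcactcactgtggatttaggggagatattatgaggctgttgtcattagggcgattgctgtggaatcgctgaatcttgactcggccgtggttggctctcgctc
Meis1, chr11:19018920-19019219, minus strand: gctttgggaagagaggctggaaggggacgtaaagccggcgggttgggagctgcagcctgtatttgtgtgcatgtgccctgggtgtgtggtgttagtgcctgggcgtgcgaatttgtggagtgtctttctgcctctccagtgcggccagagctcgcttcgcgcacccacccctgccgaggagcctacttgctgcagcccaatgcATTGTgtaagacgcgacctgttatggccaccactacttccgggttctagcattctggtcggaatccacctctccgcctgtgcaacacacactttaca

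Among these windows the core letters occur once in each of the Pax6 windows and in that of Meis1. Windows at some other listed genes with a start site in a domain are not shown. Of these, the downstream Casz1 window (domain covered at 99.4%) holds ACAAT. The upstream Casz1 window (100%) and those of Cic (92.1%), Gse1 (100%) and E2f1 (7.42%) hold no core letters. Of 21262 promoter windows of protein-coding genes, 38.9% hold at least 1 of these letter runs. Among the 228 windows whose start site lies in a domain the share was 34.2%. Domain promoters were thus not richer in these letters than promoters at large. Their median GC content was 60.7% against 56.3% for all windows, and their median ratio of observed to expected CpG was 0.602 against 0.567. The window of Sox8 overlapped P2 SOX8, P2 SOX9 and P2 H3K4me3 peaks, as did that of Notch1. Neither window overlapped a P17 peak of any list. The Foxn4 window overlapped P2 H3K4me3 but none of the 4 SOX lists. The windows of Six3 and Meis1 overlapped P2 SOX8 and P2 SOX9, and P17 H3K27ac, P17 H3K4me3 and P17 SOX9 as well.

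Of 1005 microRNA hairpins examined, 42 lay under a domain (4.18%), and those described here were chosen after their values were seen. The RefSeq gene annotation lists more microRNA genes, 1228, of which 48 (3.91%) lay under a domain. A domain without a protein-coding gene held Mir9-2. This gene encodes miR-9, a microRNA of neural progenitors that is known to act on the transcript of Hes1. Its domain, chr13:83714700-83742543, was 27844 bp wide and lay 47621 bp from Mef2c, the nearest protein-coding gene. Another domain, chr13:63296533-63319586, held Mir23b, Mir27b and Mir24-1 within Aopep, and no SOX peak. The mature sequences below are shown because these domains differed in P17 coverage, at 100% for Mir9-2 and 13.6% for the Mir23b cluster. Other domains of the 42 hairpins had less, down to 0 at 4 hairpins, among them Mir3097. Capitals mark the seed, bases 2 to 8, and no 2 of the 4 share it.
miR-9-5p, chr13:83738821-83738843, plus strand: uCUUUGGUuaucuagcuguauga
miR-9-3p, chr13:83738858-83738879, plus strand: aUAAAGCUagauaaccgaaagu
miR-27b-3p, chr13:63300760-63300780, plus strand: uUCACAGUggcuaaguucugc
miR-24-3p, chr13:63301251-63301272, plus strand: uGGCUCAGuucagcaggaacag

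The domains made up 0.289% of the P2 H3K27ac peaks and 4.89% of their bases, or 25.7 Mb. Width is what chose them, so their widths are given without a test. The narrowest domain was 20005 bp, the median 25998 bp, and the widest 141724 bp, with quartiles of 22317 and 33662 bp. By contrast, the median P2 H3K27ac peak was 1166 bp wide. Of the domains, 284 were at least 30000 bp wide, 72 at least 50000 bp and 5 at least 100000 bp. Near the threshold, the narrowest members were 20005 bp (no protein-coding gene), 20032 bp at Ctbp1 and 20043 bp at Trio. The peaks just outside were 1 bp below the threshold at Chd7, 19995 bp at Igf2bp2 and 19987 bp at Zfyve28.

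The 20 widest domains lay at genes of varied function. The widest, chr4:106918823-107060546, covered 141724 bp at Ssbp3, which encodes a cofactor of LIM-domain transcription complexes, and at Mrpl37. The second, chr4:148827469-148954358, covered 126890 bp of Casz1, a zinc-finger factor that acts in the timing of retinal cell fates. Those at Rptor, a component of the mTORC1 kinase complex, and at Msi2, a Musashi RNA-binding protein of neural progenitors, followed with 122994 and 122975 bp. The domain at Prex1, an exchange factor for Rac, was 110640 bp wide. The others of the 20 were between 70289 and 95910 bp wide and included those at Coro2b, at Tpcn2 and Smim38, at Orm2, Akna and Whrn, at Ccnk and Ccdc85c, and at Zmiz1, Med27, Sema4d, Sorcs2, Cit and Prkab1, Pcbp3, Arid1b, Dab2ip, Arhgef10 and Kbtbd11, and Srgap3. Among these, Med27 encodes a Mediator subunit, Arid1b a subunit of a chromatin remodelling complex and Whrn a scaffold protein of photoreceptors and hair cells.

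Most domains lay on gene bodies, and fewer than 1 in 5 held an annotated start site. A protein-coding gene was overlapped by 778 of 831 domains, or 93.6% (91.8 to 95.1%), against 54.2% of all P2 H3K27ac peaks, and a wide region meets more genes by its width alone. Among P2 peaks of 10000 bp to under 20000 bp, 85.4% overlapped a protein-coding gene and 10.3% held a start site. Wholly within 1 protein-coding gene lay 457 domains (55.0%), and 418 of these held no start site. The share wholly within 1 gene was not counted for other P2 H3K27ac peaks, so it only describes the domains. A start site was inside 154 domains (18.5%, against 3.57% of all P2 H3K27ac peaks), counted over the 79.9% of protein-coding genes for which the RefSeq promoter table gives one. Of 356 domains inside a gene of known strand, divided from the start into 4 equal stretches, the centre lay in stretch 1 in 35, in stretch 2 in 94, in stretch 3 in 131 and in stretch 4 in 96. Only domains wholly within the gene were counted, so domains that cross its start or end are left out. The low count in stretch 1 therefore does not show that domains avoid the start of genes. The annotation used gives gene ends only, so exons and introns were not told apart.

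In all, 754 of 21883 protein-coding genes (3.45%) lay under a domain. Their median length was 71353 bp, against 17170 bp for all protein-coding genes, and long genes offer more bases to meet. Most domains (647) met exactly 1 gene, 112 met 2 and 16 met 3. The most genes under 1 domain was 25, where the transcripts of the clustered gamma protocadherins share their 3′ end. Several genes carried more than 1 domain: 126 had at least 2, 17 at least 4 and 2 had 7. The latter were Mad1l1, a spindle checkpoint gene, with 176732 bp of domains, and Sorcs2, a sortilin-family receptor, with 276729 bp. Msi2, Zfp536 and Zhx2 had 5 each. In 74 cases the gap between neighbouring domains was at most 1000 bp, so domains in a row on 1 gene are not separate findings.

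P17 H3K27ac lay on most domains, but on very different shares of them. The P17 H3K27ac list covered 46.0% of all domain bases, and 673 of 831 domains, or 81.0% (78.2 to 83.5%), met it by at least 1 bp. Among all P2 H3K27ac peaks, 14.7% met it. A wide region meets P17 peaks more easily by its width alone, and is less easily left without one. Per Mb, domains held 48.4 P17 H3K27ac peak centres. Peaks of 10000 bp to under 20000 bp held 51.1, and all peaks under 20000 bp held 39.5. Per domain, the median share of bases covered was 36.8%, with quartiles of 8.68 and 83.3%. No P17 H3K27ac lay on 158 domains (19.0%, 16.5 to 21.8%), against 85.3% of all P2 H3K27ac peaks. At the other end, 351 domains (42.2%) were covered over at least 50% of their bases. This compares with 34.6% of P2 peaks of 10000 bp to under 20000 bp and 12.8% of all P2 peaks. Of the domains, 179 were covered over at least 90% and 94 in full. The distribution had its greatest counts at both ends: 215 domains were covered below 10% and 179 at 90% or more, while each step of 10% from 40 to 90% held 38 to 47.

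**Figure D1:**
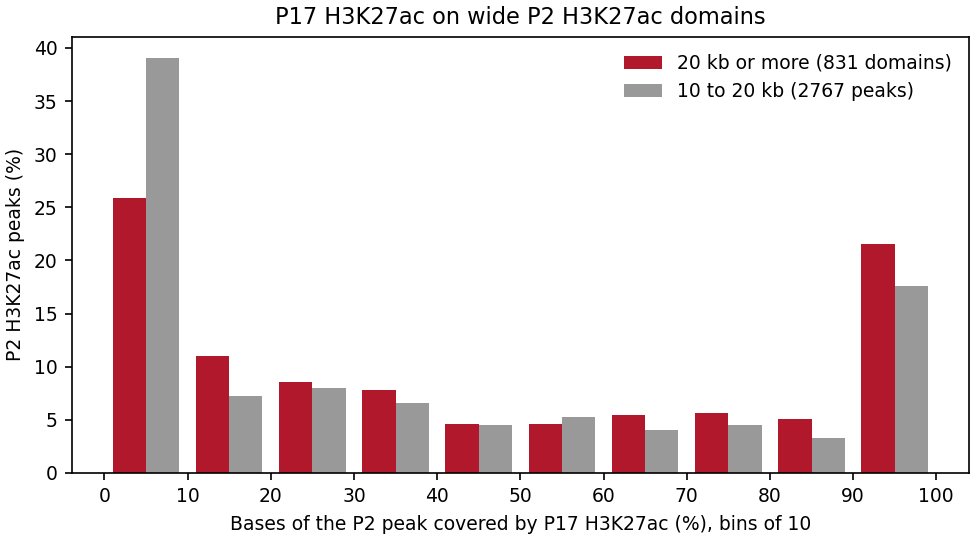
Share of P2 H3K27ac peaks (y axis, %) by the share of their bases covered by P17 H3K27ac (x axis, bins of 10%), for the 831 domains (red) and the 2767 peaks of 10000 bp to under 20000 bp (grey). Both sets pile up at the ends, with 25.9% of domains and 39.1% of the narrower peaks in the lowest bin and 21.5% and 17.6% in the highest.

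The next narrower peaks give the closest comparison. For the 2767 P2 H3K27ac peaks of 10000 bp to under 20000 bp, P17 H3K27ac covered 37.0% of bases, and 38.1% (36.3 to 39.9%) had none. Of these peaks, 61.9% met P17 H3K27ac by at least 1 bp. Coverage of at least 50% was found in 34.6% of them (32.9 to 36.4%), against 42.2% of domains (38.9 to 45.6%). For all P2 peaks under 20000 bp, P17 H3K27ac covered 18.7% of bases. Among the domains themselves the relation to width was not even: the share of bases covered was 45.1% in the 377 domains under 25000 bp, 42.6% from 25000 to 35000 bp, 40.2% from 35000 to 50000 bp and 58.6% in the 72 domains of 50000 bp or more.

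Part of the domains met, by 1 bp or more, a P17 H3K27ac peak that also reached the threshold of 20000 bp. The P17 H3K27ac list holds 1296 peaks of 20000 bp or more, and 231 domains (27.8%) overlapped one of them, against 14.8% of the P2 peaks of 10000 bp to under 20000 bp and 3.17% of all P2 H3K27ac peaks. A wider region meets such a peak more easily. Counted the other way, 208 of the wide P17 peaks (16%) overlapped a domain. Of the 351 domains covered over at least 50%, 148 met a single P17 peak and 203 met 2 or more, up to 10 on any 1 domain. The P17 H3K27ac list holds 29909 peaks in all, against 287845 in the P2 list. P17 H3K27ac peaks are wider in general, with a median of 3268 bp, and the lists were called separately. These shares, and all other shares of P17 coverage, thus also depend on how each list was made.

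Of the 94 domains covered in full, the 10 widest lay at Coro2b (95910 bp), a coronin that binds actin, at Sipa1l3 (66730 bp), at Sema3f and Rbm5 (61207 bp), at Stx6, at Cxxc5, at Nrf1, at Sec14l1, at Itpk1, at Rxra and at Ccn4 and Ndrg1. Nrf1 encodes a transcription factor of respiratory genes, and Rxra a nuclear receptor for retinoids. The 10 widest domains with no P17 H3K27ac at all lay at Ano1 (65455 bp), a calcium-activated chloride channel, at Tgm2 (64695 bp), a transglutaminase, at Col5a1 (61737 bp), a fibrillar collagen chain, at Nkd1, a Wnt inhibitor, at Tafa5, at H1f8 and Plxnd1, at 2 stretches of Gli2, at Slc45a4, and in a stretch without a protein-coding gene 44946 bp from Ccnd1, the D cyclin of retinal progenitors. Gli2 encodes a transcription factor of Hedgehog signalling. All 4 domains on Gli2, 167178 bp together, had only 1.32% of their bases covered.

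For some genes with several domains, chosen after their values were seen, all domains stood near the same end. The 5 domains of Msi2 were covered between 90.9 and 99.7%, those of Zfp536 between 75.8 and 100%, those of Foxn3 between 92.8 and 100% and the 4 of Ncam1, a neural adhesion molecule, between 69.6 and 100%. The 4 domains of Tafa5 were covered between 0 and 5.87%, and the 3 of Tns3, a focal adhesion protein, between 0 and 13.3%. Sorcs2 and Mad1l1 spanned nearly the whole range, from 0 to 93.1% and from 0 to 94.7%. Neighbouring domains of a gene can share P17 peaks and are not independent.

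Genes on the lists of retinal and other cell types were then located. Of 216 matched genes, 23 (10.6%) lay under a domain, against 3.45% of all protein-coding genes. The lists were drawn up with earlier results of these data known, and this difference was not tested. By list, 4 of 24 retinal progenitor genes lay under a domain, 3 of 24 fate factors, 1 of 20 photoreceptor genes, 1 of 12 bipolar genes, 3 of 21 Müller glia genes, 2 of 13 further Notch pathway genes, 2 of 13 cell cycle and Id genes and 5 of 22 chromatin and transcription regulators. None of 15 amacrine and horizontal and 16 ganglion cell genes did. Among markers of other tissues and cell types, none of 8 pigment epithelium, 8 microglia and 6 lens genes lay under a domain, 1 of 8 endothelial and pericyte genes did (Kdr, the VEGF receptor), and 1 of 6 astrocyte and oligodendrocyte genes (Mbp, a myelin protein).

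Of the 4 listed progenitor genes under a domain, 3 are homeobox genes, and P17 H3K27ac covered nearly the whole length of their domains. The other, Notch1, is described below and had 28.0% of its domain covered. The domain at Pax6, chr2:105657159-105694669, was 37511 bp wide and covered at 97.5% by P17 H3K27ac. That at Six3, chr17:85604152-85633250, was 29099 bp wide and covered at 94.4%, and that at Meis1, chr11:19002516-19023778, 21263 bp and 92.9%. All 3 genes encode homeodomain factors of the eye field or of progenitors, and Pax6 and Meis1 are also known in mature amacrine cells. Casz1 carried 2 domains, covered at 99.4 and 100%, and Rorb, a nuclear receptor of photoreceptor and interneuron development, 1 covered at 87.6%. Foxn4, the remaining fate factor under a domain, is described below and had 3.17% of its domain covered. The single photoreceptor gene was Prph2, a structural protein of the outer segment disc rim. Its domain, shared with Ubr2, was covered at 99.9% and held no P2 SOX peak but 1 P17 SOX9 peak.

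Among the listed genes, domains on those of Notch signalling and proliferation ranged from none covered to 51.2%. The domain at Notch1, chr2:26459335-26505310, spanned 45976 bp, and P17 H3K27ac covered 28.0% of it. That at Notch2 had none, and that at Mfng, a glycosyltransferase that modifies Notch, had 51.2%. Foxn4, a forkhead factor that directs progenitors to amacrine and horizontal fates, lay under a domain of 66598 bp, chr5:114243216-114309813, shared with Acacb and Myo1h. P17 H3K27ac covered 3.17% of it. Both domains of Cdk6, a G1 kinase, had none, and that of E2f1, an S-phase transcription factor, 7.42%. Among Müller glia genes, the domain at Sox8 and Lmf1, chr17:25554517-25581315, was covered at 17.1%, those at Slc1a3, the glutamate transporter of glia, at 0 and 40%, and that at Dkk3 at 66.7%. The list of chromatin regulators was partly drawn up after earlier results, so its values only describe the genes named here: Arid1b at 63.4%, the 3 domains of Chd7 at 79.8 to 100%, Cic at 92.1% and the 4 of Gse1 at 83.4 to 100%. Histone deacetylase genes, which were not on the list, differed from each other, with the 3 domains of Hdac4 at 0, 0 and 19.1% and that of Hdac5 at 100%. Prkca, a kinase of rod bipolar cells, stood at 11.1%, Kdr at 6.52% and Mbp at 37.8%. Fewer cells that carry the mark and less mark per cell cannot be told apart in whole retina.

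**Figure D2:**
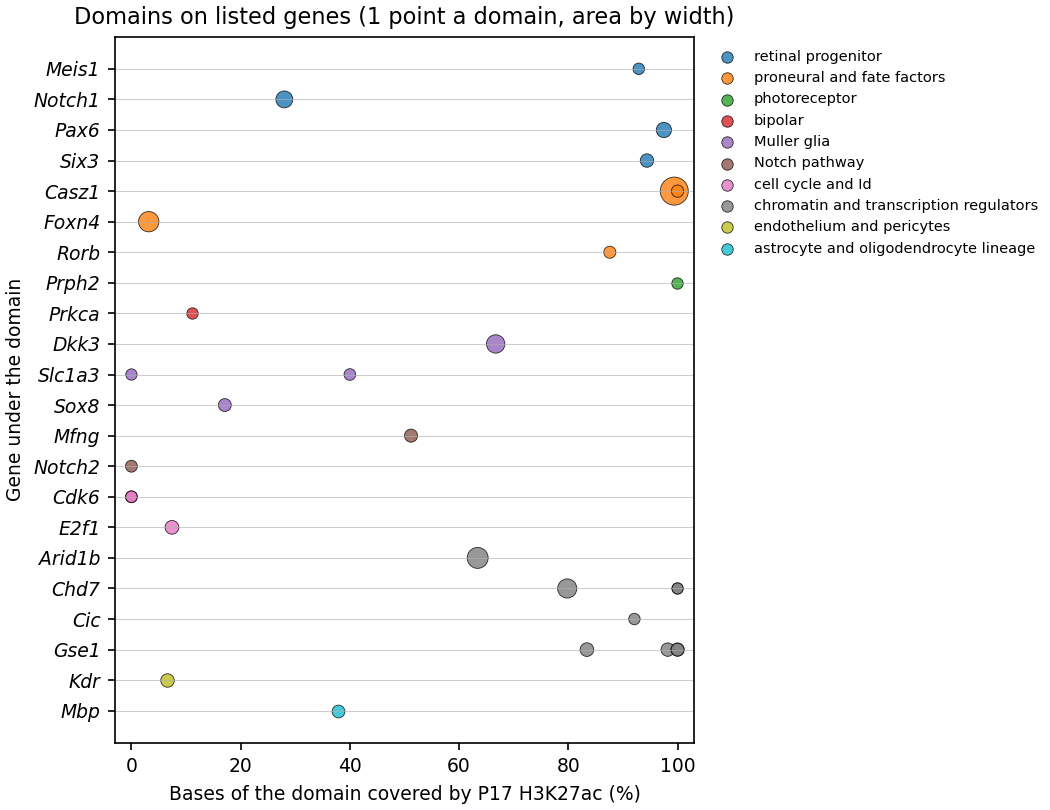
Share of each domain's bases covered by P17 H3K27ac (x axis, %) for 22 listed genes under a domain (y axis), with 1 point per domain, its area in proportion to domain width and its colour giving the gene list. Pax6, Six3, Meis1, Casz1, Prph2, Cic and some domains of Chd7 and Gse1 sit above 92%. Cdk6, Notch2, Foxn4, E2f1, Kdr and 1 domain of Slc1a3 sit below 8%.

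SOX peaks lay on 366 of the 831 domains (44.0%), counting any of the 4 SOX lists. This joint share was not counted for other P2 H3K27ac peaks, so it only describes the domains. P2 SOX8 peaks lay on 107 domains, or 12.9% (10.8 to 15.3%), and P2 SOX9 peaks on 243, or 29.2% (26.3 to 32.4%). P17 SOX8 peaks lay on 152 domains, or 18.3% (15.8 to 21.1%), and P17 SOX9 peaks on 216, or 26% (23.1 to 29.1%). Among all P2 H3K27ac peaks these shares were 0.924%, 1.94%, 0.874% and 1.33% in the same order. A wide region meets more peaks, so counts per Mb are the fairer measure. Domains held 5.45 P2 SOX8 and 14.3 P2 SOX9 peak centres per Mb, against 5.21 and 11.4 in peaks of 10000 bp to under 20000 bp and 4.96 and 9.93 in all peaks under 20000 bp. For P17 SOX8 and P17 SOX9 the densities were 8.02 and 10.7 per Mb in domains, 6.68 and 8.09 in the next narrower peaks and 3.84 and 4.10 in all peaks under 20000 bp. Against the next narrower peaks, the density of P2 SOX8 was nearly the same, and those of the other 3 SOX lists were higher in the domains.

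The promoter mark was not denser in the domains than in shorter peaks. P2 H3K4me3 peaks lay on 159 domains, or 19.1% (16.6 to 21.9%), against 3.62% of all P2 H3K27ac peaks, and P17 H3K4me3 peaks on 154, or 18.5% (16 to 21.3%), against 3.89%. Per Mb, domains held 6.42 P2 and 6.58 P17 H3K4me3 centres, close to the 7.28 and 6.90 of the next narrower peaks, while all P2 H3K27ac peaks under 20000 bp held 16.5 and 16.4.

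**Figure D3:**
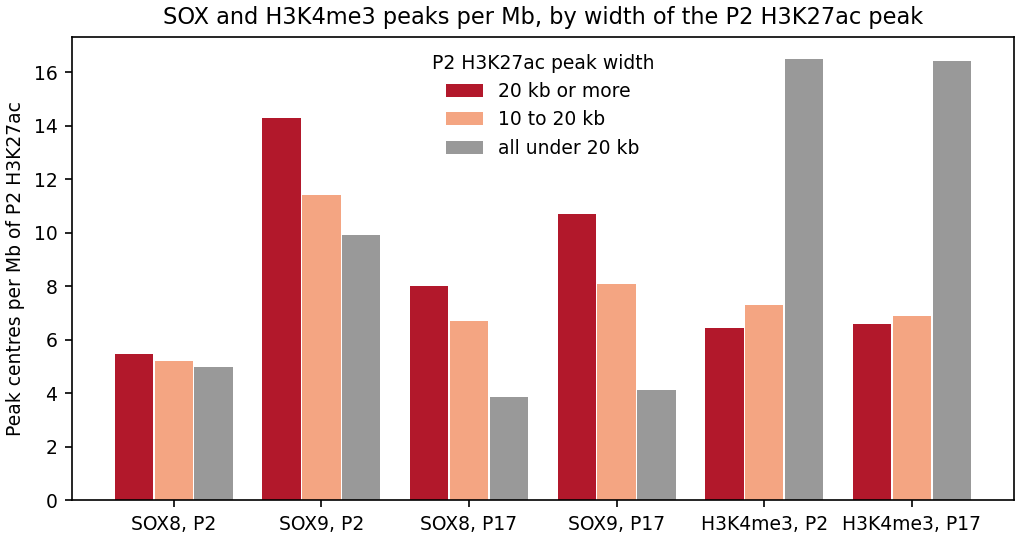
Peak centres per Mb of P2 H3K27ac (y axis) for the SOX and H3K4me3 lists of both ages (x axis), in domains of 20 kb or more (red), peaks of 10 to 20 kb (orange) and all peaks under 20 kb (grey). SOX9 density is greatest in the domains at both ages (14.3 and 10.7 per Mb), and H3K4me3 density is greatest over all peaks under 20 kb.

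A smaller share of the SOX peaks on domains than of those elsewhere overlapped H3K4me3. Those elsewhere were taken as 1 set, so whether P2 H3K27ac peaks of 10000 bp to under 20000 bp share this trait was not tested. On the domains lay 140 P2 SOX8 peaks (5.28% of the list), 367 P2 SOX9 peaks (6.70%), 211 P17 SOX8 peaks (8.79%) and 293 P17 SOX9 peaks (10.3%). Of the P2 SOX9 peaks on domains, 36.8% overlapped P2 H3K4me3, against 82.9% of those off domains. For P2 SOX8 these shares were 55.7 and 92%, for P17 SOX8 36.0 and 73.0%, and for P17 SOX9 38.2 and 69.7%. SOX peaks on domains were also wider, with medians of 3458 against 2620 bp for P2 SOX9 and 6534 against 5143 bp for P17 SOX9. No test was run on these differences, since several peaks can share 1 domain: 84 domains held 2 or more P2 SOX9 peaks, up to 7 on the longer Casz1 domain. Of the P2 SOX9 centres inside domains, 55.6% lay in the middle 50% of the domain, of the P17 SOX9 centres 50%, of the P2 SOX8 centres 45% and of the P17 SOX8 centres 49.0%.

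Nearly every P2 SOX8 peak lay at a SOX9 peak, on domains and elsewhere: 97.1% of those on domains overlapped P2 SOX9, against 94.5% of the whole SOX8 list. Of the 107 domains with a P2 SOX8 peak, 106 also held a P2 SOX9 peak, and 137 domains held P2 SOX9 without SOX8. At P17, 111 domains held both, 41 SOX8 only and 105 SOX9 only. How SOX8 and SOX9 shared other P2 H3K27ac peaks was not counted. Across ages, SOX9 lay on 117 domains at both P2 and P17 (14.1%), on 126 at P2 only (15.2%) and on 99 at P17 only (11.9%), against 0.628%, 1.31% and 0.702% of all P2 H3K27ac peaks. SOX8 lay on 54 domains at both ages (6.5%), on 53 at P2 only (6.38%) and on 98 at P17 only (11.8%), against 0.433%, 0.491% and 0.441%. Of the domains with SOX9 at either age, 34.2% had it at both, 36.8% at P2 only and 28.9% at P17 only, against 26.8%, 41.8% and 31.4% of the peaks of 10000 bp to under 20000 bp that had it. For SOX8 these shares were 26.3%, 25.9% and 47.8%, against 27.9%, 29.8% and 42.3%. These differences were not tested. All 4 SOX lists met on 44 domains, among them those at Casz1, Zmiz1, Meis1, Cic and Mir9-2, and the median P17 coverage of these 44 was 91.5%. Other P2 H3K27ac peaks with all 4 lists were not counted.

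The domains richest in SOX9 bases at P2 were led by Pmepa1, where SOX9 peaks covered 72.8% of 59964 bp, followed by Ccnk and Ccdc85c at 46.0%, Pax6 at 94.4% and the Mir9-2 domain at 99.6%. Others among the 10 were the longer Casz1 domain at 21.6%, Cxxc5 at 48.5%, Six3 at 88.0%, the domain of Mark3, Ckb and Trmt61a at 49.2% and the domain of Bcas3 and Tbx2 at 71.4%. Tbx2 encodes a T-box factor of dorsal retina. P2 H3K4me3 was also broad on some of these domains. It covered 100% of the Mir9-2 domain, 89.8% at Pax6, 82.5% at Six3 and 67.5% at Bcas3 and Tbx2. On the others named it covered from 3.53% (the longer Casz1 domain) to 35.3% (Mark3, Ckb and Trmt61a). Bases under a called peak do not measure the strength of binding. At P17 SOX9 covered 31.3% of the Pax6 domain and 64.3% of that at Six3. Among the 5 domains with the most P17 SOX9 bases were the longer Casz1 domain (50.5% of its bases), that at Ccnk and Ccdc85c (45.7%), a domain 66795 bp from any protein-coding gene that holds Mir3089 (60.2%), and that at Atp13a2, Mfap2 and Crocc (65.1%). At Sox8, 3 P2 SOX9 peaks covered 50.3% of the domain and 1 P2 SOX8 peak lay at the gene, and no P17 SOX peak lay on the domain. At Foxn4, 4 P2 SOX9 peaks covered 21.2%, with no SOX8 peak and no P17 SOX peak.

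**Figure D4:**
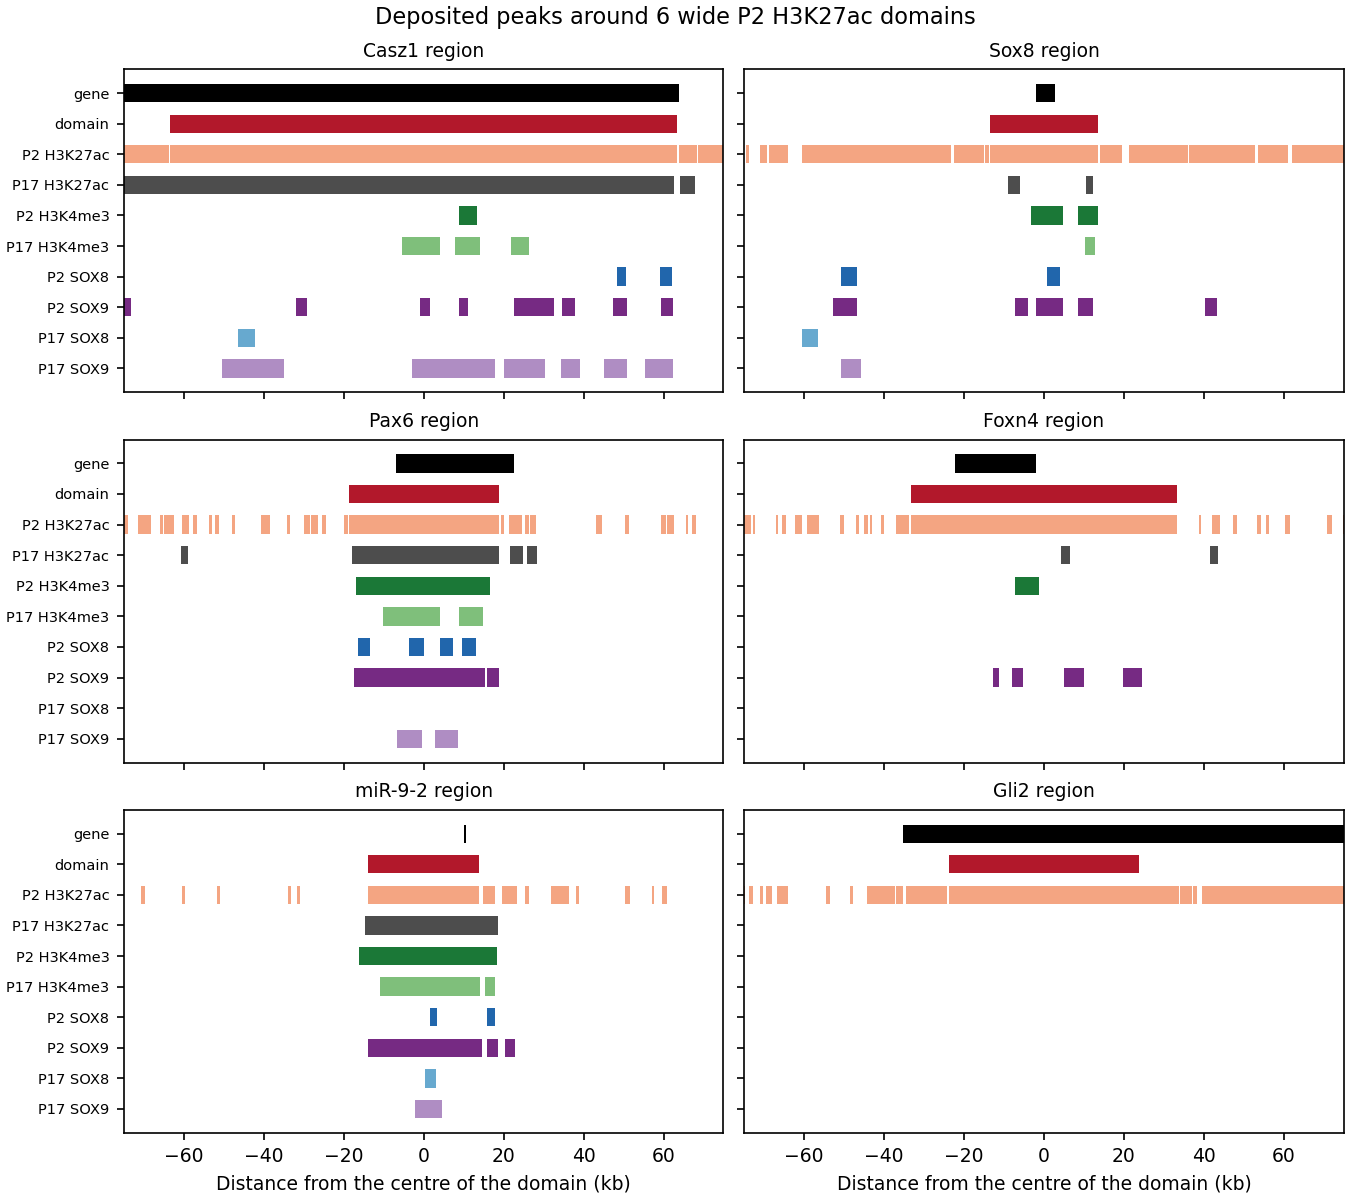
Deposited peaks within 75 kb of the centre of 6 domains (x axis, distance from the domain's centre in kb; rows, the gene, the domain and the 8 peak lists; bars are cut at the edge of the window). At Casz1, Pax6 and Mir9-2 a P17 H3K27ac peak spans the domain and SOX9 lies on it at both ages, while at Sox8 and Foxn4 small P17 H3K27ac peaks are left and the widest Gli2 domain holds no peak of any other list.

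P17 coverage of a domain went together with SOX peaks and with H3K4me3. P2 SOX9 peaks lay on 16 of the 158 domains without P17 H3K27ac (10.1%, 6.33 to 15.8%), on 82 of the 322 covered above 0 and below 50% (25.5%, 21.0 to 30.5%), and on 145 of the 351 covered at 50% or more (41.3%, 36.3 to 46.5%). P2 H3K4me3 lay on 2.53%, 14.3% and 31.1% of the same classes, and P2 SOX8 on 3.8%, 10.9% and 18.8%. P17 SOX9 lay on 8.23%, 16.5% and 42.7%. P17 H3K4me3 lay on 0 of the 158 domains without P17 H3K27ac, for which 3 counts allow a share of up to 1.90% and the Wilson interval one of up to 2.37%, and on 35.3% of those covered at 50% or more. Median widths of the 3 classes were 24282, 27048 and 26199 bp.

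**Figure D5:**
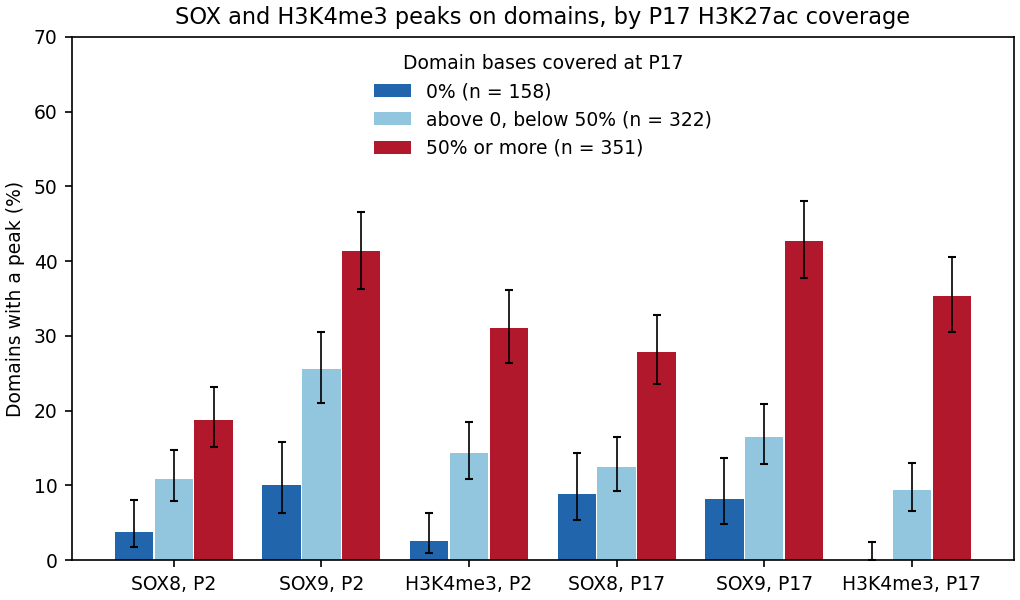
Share of domains with a SOX or H3K4me3 peak (y axis, %; bars with 95% Wilson intervals) for domains with no P17 H3K27ac, with some but under 50% of bases covered, and with 50% or more covered. Each of the 6 lists has its greatest share in the most covered class, up to 42.7% for P17 SOX9.

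H3K4me3 went with these counts, so the domains without it at either age were taken alone. Among these 647 domains, P2 SOX9 peaks lay on 8.44% of those with no P17 H3K27ac (5.0 to 13.9%), on 16.1% of the middle class (12.2 to 20.9%) and on 22.8% of those covered at 50% or more (17.8 to 28.8%). P17 SOX9 lay on 7.14%, 12.8% and 23.3% of them. P2 SOX8 lay on 3.25% (1.39 to 7.37%), 4.38% (2.52 to 7.50%) and 5.48% (3.16 to 9.33%), and P17 SOX8 on 8.44% (5.0 to 13.9%), 7.66% (5.07 to 11.4%) and 11.9% (8.23 to 16.8%). Intervals of all 3 classes overlapped for SOX8. For P2 SOX9 those of neighbouring classes overlapped, but those of the lowest and highest class did not. Domains on 1 gene are not separate findings, so these intervals do not serve as a test. For SOX8 and SOX9 alike, the spread between the classes was smaller than over all domains once domains with H3K4me3 were left out. Seen from the other side, the median P17 coverage was 41.8% for the 107 of them with a P2 SOX9 peak and 23.5% for the 540 without. Over all domains it was 66.9% with and 26.2% without a P2 SOX9 peak. Domains with a P2 SOX9 peak were also wider, with a median of 29494 against 25126 bp, and the part of width in this difference was not tested.

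Age at which SOX9 was found also went with P17 coverage. The median share covered was 88.2% on domains with SOX9 at both ages, 64.0% with SOX9 at P17 only, 37.7% with SOX9 at P2 only and 22.2% with none. For SOX8 the medians were 87.2%, 62.7%, 49.6% and 28.5% in the same order. P17 SOX peaks and P17 H3K27ac come from retina of the same age, and whether both follow the overall signal at a locus was not tested.

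The chromosomes differed in their number of domains. Chromosome 7 held 84 domains, 10.1% of all, with 4.72% of the P2 H3K27ac peaks, and chromosome 11 held 68 (8.18%) with 5.11%. Chromosome 3 held 16 (1.93%) with 6.38% of the peaks, and chromosomes 13 and 14 held 17 each. No domain lay on the X chromosome, where the list has 4092 peaks and the widest was 14695 bp.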

How the data were processed

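The deposited data are 8 peak lists, each with chromosome, start and end, and a score of 0 in every peak as the authors deposited it, so no height, fold or p-value is given. Per the submitters' processing notes, Bowtie2 and SEACR were used with build GRCm38; their roles, versions and thresholds, the use of IgG and the way libraries were combined are not given in the sources used here. Peak positions were used as the authors deposited them and are given counted from 1.

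From these, overlaps of 1 bp or more and covered bases were computed with Python 3.11.15, pandas 2.3.3, numpy 2.4.6 and scipy 1.17.1. The interval code was tested on simulated data: all 20 runs of 40 intervals equalled a direct count. Genes (21883 protein-coding) and promoter windows came from RefSeq tables of GRCm38.p6, the build of the lists; no genome sequence was used. Of the 754 genes under a domain, 569 had a promoter window.

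Named domains are the 20 widest, those on listed genes, the 10 with the greatest and the 10 widest with the least P17 coverage, those with the most SOX9 bases, those at the threshold and the widest without a gene. MicroRNAs, genes with several domains and gene families were chosen after their values were seen. The members and the gene lists were chosen with earlier results of these data known. One gene among those that these rules name is not reported here. Depth per library is unknown, so no interval that needs it is given. The alternatives were thresholds of 15000 and 30000 bp, merging across gaps of 1000 bp, autosomes only, peak centres, the wider 50% of each list, other rules for genes and, added after seeing the data, only P17 peaks of 20000 bp or more.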

Additional observations from a re-analysis of the deposited data

How the results depend on the processing

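No paired analysis was possible because each deposited list stands for a whole group and names no replicate. Each list was 1 deposited table, so leaving out a replicate could not be run either.

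The threshold and the joining of neighbours set how many domains there are: 1527 at 15000 bp or more, 284 at 30000 bp or more, and 2427 when gaps of up to 1000 bp were merged, of which 1726 hold no domain of the report. Protein-coding genes under them then numbered 1210, 286 and 2169, and listed genes 36, 10 and 51. With an end of the gene required inside the domain the counts were 284 genes and 14 listed genes. The share of bases covered by P17 H3K27ac was 44.2% at 15000 bp, 48.1% at 30000 bp and 36.0% after merging, 41.7% with the wider 50% of the P17 list, and 24.7% with only P17 peaks of 20000 bp or more. Shares of domains with a peak changed with domain width. At 15000 bp they were 10.6% for P2 SOX8, 24.5% for P2 SOX9, 14.7% for P17 SOX8, 21.4% for P17 SOX9 and 15.8% for P17 H3K4me3. At 30000 bp they were 18.7%, 41.5%, 24.3% and 37.3% for the same SOX lists, 26.8% for P2 H3K4me3 and 23.6% for P17 H3K4me3. After merging they were 10.7%, 22.9%, 13.2% and 18.3% for the SOX lists. With the wider 50% of each list they were 9.63%, 24.1%, 13.7% and 21.8% for the SOX lists and 15.2% for P17 H3K4me3; fewer peaks are laid over the domains there. Autosomes only changed nothing, since no domain lay on a sex chromosome. The unknown depth and calling threshold limit any comparison of the P2 with the P17 list.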

Other observations

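Gene families were picked by symbol after the domains had been seen, so their counts are descriptions. For comparison, 3.45% of all protein-coding genes lay under a domain, 42.2% of all domains were covered at 50% or more and 19.0% at 0. Of 44 collagen chain genes, 8 lay under a domain (18.2%), and none of their 11 domains reached 50% P17 coverage. No P17 H3K27ac lay on 6 of them, at Col5a1 (3 domains), Col9a1, Col18a1 and Col4a2. The others were covered at 49.8% (Col18a1), 22.4% (Col2a1), 15.9% (Col6a1), 10.6% (Col17a1) and 10.5% (Col9a3). All 3 domains of Fbn2, a fibrillin, and that of Hspg2, perlecan of basement membranes, had none. Of 11 laminin chain genes, 2 lay under a domain, Lama5 at 0 and Lamc3 at 18.5%. Of 18 cyclin-dependent kinase genes, 2 lay under a domain (11.1%). These were Cdk1 and Cdk6, under 3 domains without P17 H3K27ac, of which 2 lay on Cdk6. Both Musashi genes lay under domains, 6 in all, covered at 90.9 to 99.7%. Of the axon guidance genes, 5 of 20 semaphorin genes lay under domains covered at 11 to 100%, 4 of 9 plexin genes under domains covered at 0 to 100%, and 3 of 22 Eph receptor and ephrin genes under 4 domains covered at 0 to 21%.

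No protein-coding gene lay under 53 domains, and their median P17 coverage was 20.1%. The 5 widest were chr17:83932350-83995493 (63144 bp, 29.2% covered), 83369 bp from Haao; chr7:144984777-145038623 (53847 bp, none covered), 44946 bp from Ccnd1; chr2:30679816-30728768 (48953 bp, 93.9% covered); chr2:30634056-30679385 (45330 bp, 88.4% covered), 25111 bp from Cstad; and chr11:113158128-113202096 (43969 bp, 29.2% covered). The pair on chromosome 2 lies side by side, and SOX8 and SOX9 peaks of both ages lie on each. A further one, chr2:26523707-26557296, lay 19885 bp from Notch1 and held 1 P2 SOX8 and 1 P2 SOX9 peak, no P17 SOX peak and 17.2% P17 coverage.

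Besides the microRNAs shown with their sequences, Mir338 and Mir3065, which overlap on chromosome 11, lay at Aatk and Baiap2 under a domain covered at 29.6%, Mir342 at Evl under one covered at 80.2%, and Mir326 at Arrb1 under one covered at 36.0%. Of 12727 lncRNA genes, 268 (2.11%) lay under a domain.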
